A study of Mus musculus with 8 samples.

Results

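The 10 genes described here encode the enzymes by which the periportal liver turns amino acid nitrogen into urea. They are the 6 genes of the urea cycle (Nags, Cps1, Otc, Ass1, Asl and Arg1) and 4 genes of amino acid breakdown in the same zone (Gls2, Sds, Hal and Tat). They were chosen by symbol, and each has 1 row among the 24451 genes of the deposited table. All 10 passed the filter on low values (a mean over all 8 livers of 5 or more normalized counts), which left 15352 genes to be tested.

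RNA was sequenced from the left lobe of the liver of 4 Brap LKO mice, which carry floxed Brap alleles and an Albumin-Cre transgene (Brap fl/fl; Alb Cre+), and of 4 Brap F/F mice, which carry the same floxed alleles without Cre (Brap fl/fl; Alb Cre-). All 8 mice were C57BL/6, 18 wk old, male by the study's methods and fasted for 6 h before they were killed. The comparison asks what the loss of Brap, an E3 ubiquitin ligase, changes in liver gene expression. The Albumin promoter drives Cre in hepatocytes and their precursors, which also give rise to bile duct cells, and which cells had recombined was not measured here. No control carries Cre without floxed alleles.

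The urea cycle detoxifies ammonia. N-acetylglutamate, made by NAGS, switches on carbamoyl-phosphate synthase (CPS1) in the mitochondrion, where ornithine transcarbamylase (OTC) then makes citrulline. In the cytosol, argininosuccinate synthase (ASS1), argininosuccinate lyase (ASL) and arginase (ARG1) complete the cycle and release urea. GLS2, SDS, HAL and TAT free nitrogen or carbon from glutamine, serine, histidine and tyrosine. Periportal hepatocytes hold most of these enzymes, while pericentral hepatocytes scavenge the remaining ammonia as glutamine. Glucagon and glucocorticoids induce many of the genes in fasting, Tat and Sds among them.

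Reads on genes numbered 26280884 to 33313914 per liver. The values are normalized counts, the reads on a gene divided by 1 size factor per liver. Each liver came from a mouse with its own number, so the replicates are animals. Over all the genes tested, limma called 102 higher (0.664%) and 16 lower (0.104%) in Brap LKO at a Benjamini-Hochberg adjusted p under 0.05. Defining hepatocyte markers were high in every liver: 7 of the 8 listed were measured, and their summed normalized counts were 2159424 to 2925516 in Brap LKO and 2630478 to 3818755 in Brap F/F. The normalized count of Brap itself was 3988 ± 242 in Brap LKO and 4186 ± 179 in Brap F/F (SD, n = 4 each), with overlapping groups and a limma adjusted p of 0.631. The floxed exons 2 and 3 hold 9.27% of the bases of its longest coding transcript, so this count, which covers the whole gene, is no test of the deletion. The groups, and every direction given here, rest on the labels.

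No gene of the 10 rose or fell past the threshold in Brap LKO livers. Of the 10, 0 were called higher and 0 lower by limma, by edgeR's quasi-likelihood test or by DESeq2. The background is low: edgeR called 0.703% of the genes tested higher and 0.0912% lower, and DESeq2 2.96% and 1.11%. The 6 urea cycle genes had fitted log2 fold changes between -0.35 and -0.14, although Otc lay above 0 (0.02) when every liver was given the same total and Cps1 (0.14) with quantile normalization. Of the other 4, Tat and Sds lay below 0 and Hal and Gls2 just above it. With the same total the 10 fold changes ran from -0.71 (Tat) to 0.23 (Hal) with a median of -0.08, and the median of all genes was 0.15. The median over the 10 was -0.23, against -0.01 over all the genes tested, of which 52% were below 0. Fold changes are Brap LKO minus Brap F/F on the scale of log2(normalized count + 1).

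**Figure D1:**
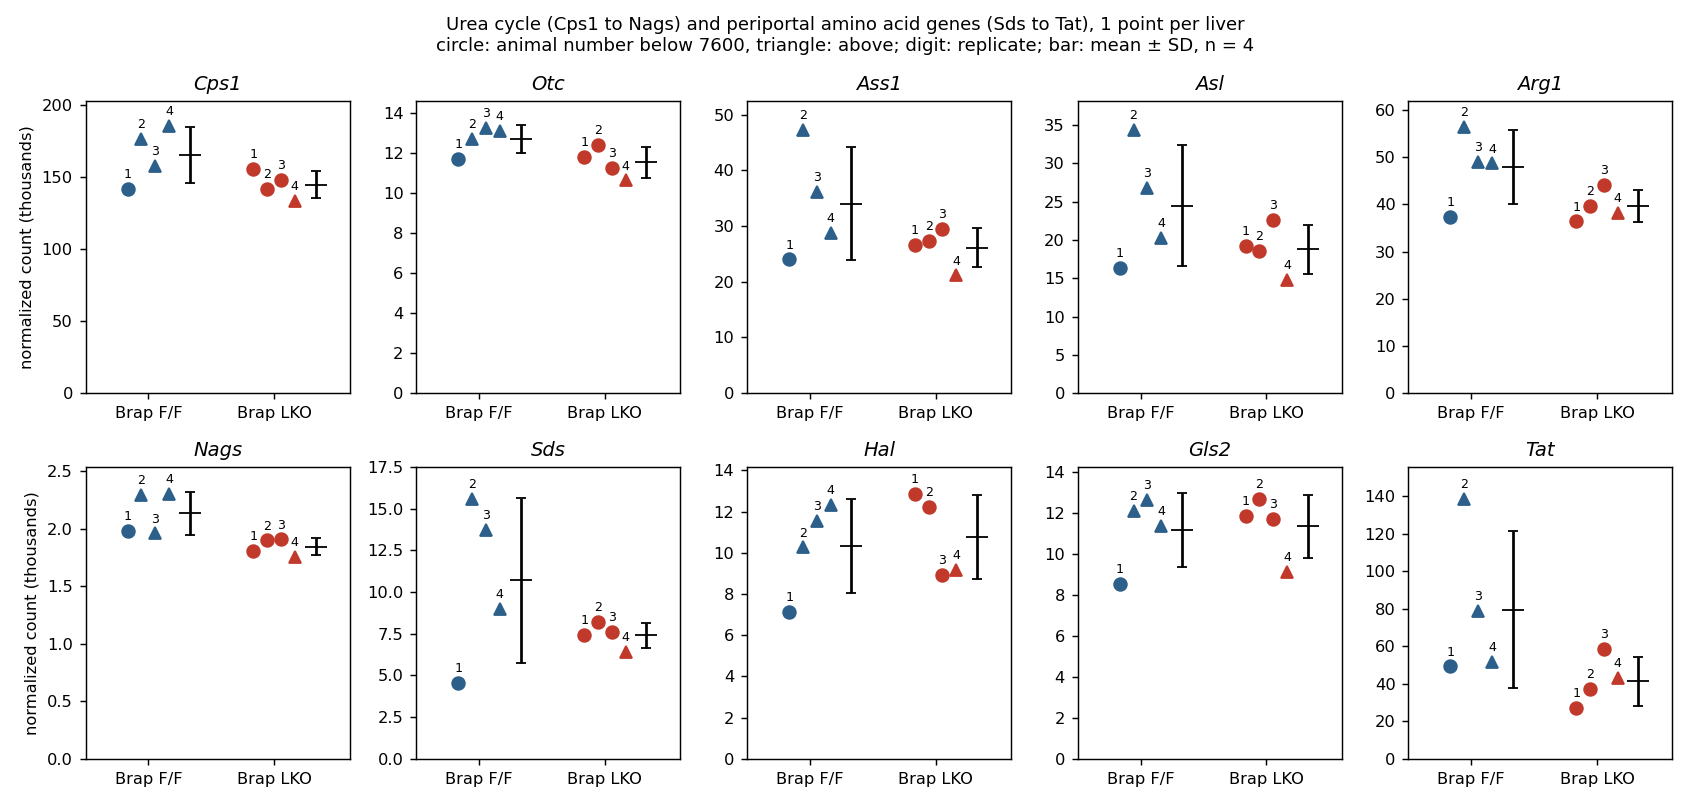
Normalized counts (in units of 1000 on a linear axis from 0) of the 10 genes in each liver, with the mean ± SD (n = 4) beside each group. Circles are livers from animals numbered below 7600 and triangles those above, and the digit is the replicate. Only for Nags do the groups not overlap, and for Sds and Tat the Brap F/F livers span 3.43-fold and 2.82-fold.

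The 3 mitochondrial genes of the cycle had the smallest fitted differences of the 6, between -0.21 and -0.14. Nags (chr11:102145513-102149477, plus strand of mm10), which makes the activator of CPS1, was the least abundant member. Brap LKO replicates 1 to 4 had normalized counts of 1809.9, 1898, 1906 and 1756, and Brap F/F replicates 1 to 4 of 1982, 2293, 1958 and 2299.9. Every Brap LKO liver was below every Brap F/F liver, as for 4.39% of all genes tested, and no member showed the reverse, which 5.48% of genes did. The means were 1842 ± 72.4 and 2133 ± 189 (SD, n = 4), and the log2 fold change was -0.21 (SE 0.0755, 95% confidence interval -0.38 to -0.04). With the same total for each liver the log2 fold change of Nags was -0.05, while the median of all genes was 0.15. On the deposited scale the two-sided exact permutation p was 0.0286, the smallest that 70 arrangements of 4 livers against 4 allow, and the limma p was 0.0214 unadjusted and 0.239 adjusted over all genes. Of its exon bases 15.6% are shared with Gm11586 on the opposite strand, and the sources used here do not state whether counting used strand.

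Cps1 (chr1:67123026-67231259, plus strand), the entry enzyme of the cycle, was the most abundant member per kilobase of exon in Brap LKO, and among controls it was close to Tat. In Brap LKO its normalized counts were 155478, 141542, 147544 and 133169, and in Brap F/F 141540.4, 176346.5, 157732 and 185042. The lowest Brap F/F liver lay inside the Brap LKO range and the other 3 were above all of it. The means of 144433 ± 9432 and 165165 ± 19438 gave a log2 fold change of -0.19 (SE 0.162, interval -0.55 to 0.18, limma adjusted p = 0.594).

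Otc (chrX:10252305-10321024, plus strand), which joins carbamoyl phosphate to ornithine, had the narrowest range of the 10 over the 8 livers, 1.25-fold. Its normalized counts were 11809, 12389, 11261 and 10622 in Brap LKO and 11684, 12712, 13243 and 13077 in Brap F/F. Again 3 of the 4 Brap F/F livers stood above every Brap LKO liver and replicate 1 did not. The log2 fold change was -0.14 (SE 0.0789, interval -0.32 to 0.04, limma adjusted p = 0.420).

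The cytosolic part of the cycle varied more among the control livers. The coefficients of variation of Ass1, Asl and Arg1 were 8.38% to 17.1% in Brap LKO and 16.4% to 32.3% in Brap F/F. Ass1 (chr2:31470207-31520672, plus strand) makes argininosuccinate from citrulline and aspartate. Normalized counts were 26552, 27305, 29427 and 21131 in Brap LKO and 24009, 47282, 36043 and 28708 in Brap F/F. Replicates 2 and 3 of Brap F/F exceeded every Brap LKO liver, and replicates 1 and 4 did not. The log2 fold change was -0.35 (SE 0.203, interval -0.80 to 0.11, limma adjusted p = 0.436).

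Asl (chr5:130011258-130029247, minus strand), which splits argininosuccinate into arginine and fumarate, followed Ass1 liver by liver. Its normalized counts were 19194, 18601, 22639.9 and 14806 in Brap LKO and 16374, 34379, 26822 and 20246 in Brap F/F. As for Ass1, replicates 2 and 3 of Brap F/F were the highest of the 8 livers and Brap LKO replicate 4 the lowest. The log2 fold change was -0.34 (SE 0.223, interval -0.84 to 0.16, limma adjusted p = 0.486). The ratio of Ass1 to Asl stayed between 1.30 and 1.47 in Brap LKO and between 1.34 and 1.47 in Brap F/F, although each of the pair ranged more than 2-fold over the livers (2.24-fold and 2.32-fold).

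Arg1 (chr10:24915221-24927484, minus strand), the arginase that releases urea, gave normalized counts of 36372, 39673, 44171 and 38262 in Brap LKO and 37329, 56351, 49028 and 48655 in Brap F/F. Replicate 1 of Brap F/F lay among the Brap LKO livers and the other 3 lay above them. Arg1 had a fitted log2 fold change of -0.26 (SE 0.140, interval -0.58 to 0.05, limma adjusted p = 0.396).

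**Figure D2:**
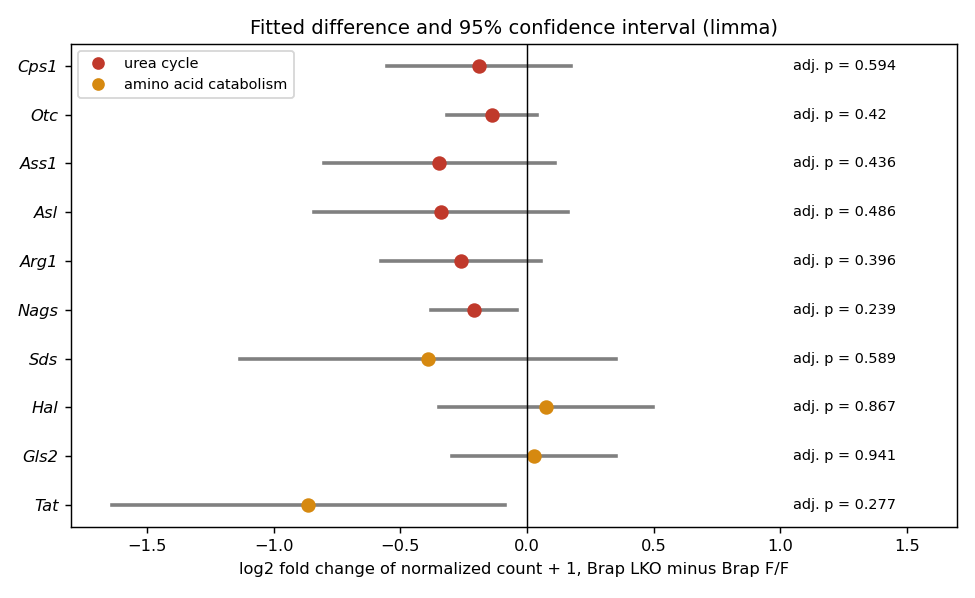
Fitted log2 fold change (Brap LKO minus Brap F/F, log2(normalized count + 1)) of each gene, as a point with its 95% confidence interval from limma and its adjusted p. The intervals of Nags and Tat lie wholly below 0, the other 8 include it, and no adjusted p is under 0.05.

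Among the amino acid genes, Tat had the lowest mean in Brap LKO relative to control. Tat (chr8:109990437-109999803, plus strand) encodes tyrosine aminotransferase, a classical glucocorticoid-induced enzyme. Its normalized counts were 27208, 37111, 58479.6 and 43042 in Brap LKO and 49280.3, 138751, 78937 and 51505 in Brap F/F. Replicate 3 of Brap LKO lay above 2 of the control livers, and replicate 2 of Brap F/F was far above all the others. The means were 41460.0 ± 13092 and 79618 ± 41665 (SD, n = 4), with a linear ratio of 0.521 and a fitted log2 difference of -0.86 (SE 0.345, interval -1.64 to -0.09). The limma p was 0.0329 unadjusted and 0.277 adjusted, and the exact permutation p was 0.0857. Without Brap F/F replicate 2 the log2 fold change of Tat was -0.55. Nags and Tat were the only members with an unadjusted limma p under 0.05, both lower in Brap LKO. Of all the genes tested, 6.59% were lower and 9.23% higher at that p.

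Sds (chr5:120476526-120483932, plus strand), serine dehydratase, turns serine into pyruvate and ammonia. Its normalized counts were 7419, 8217, 7611 and 6390.0 in Brap LKO and 4541, 15563, 13735 and 8998 in Brap F/F. The Brap LKO livers fell inside the span of the controls, which held both the lowest liver and the 3 highest. The coefficient of variation was 10.3% in Brap LKO and 46.3% in Brap F/F. The log2 fold change of -0.39 (SE 0.331, interval -1.13 to 0.35, limma adjusted p = 0.589) moved to -0.75 without Brap F/F replicate 1 and to -0.16 without Brap F/F replicate 2. Of the exon bases of Sds 21.3% are shared with Plbd2 on the opposite strand.

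Hal and Gls2 lay close to 0. Hal (chr10:93488768-93519304, plus strand), histidine ammonia-lyase, gave normalized counts of 12849, 12235, 8913 and 9163 for Brap LKO and 7137, 10263, 11546 and 12316 in Brap F/F. Its highest liver was a Brap LKO liver and its lowest a control. The log2 fold change was 0.08 (SE 0.188, interval -0.35 to 0.50, limma adjusted p = 0.867), and it changed sign without Brap F/F replicate 1 (-0.09) or Brap LKO replicate 1 (-0.02).

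Gls2 (chr10:128194457-128210004, plus strand), the liver-type glutaminase that feeds ammonia to CPS1, gave normalized counts of 11832, 12659, 11681 and 9129 for Brap LKO and 8533, 12086, 12609 and 11369 in Brap F/F. The groups overlapped almost wholly, and each had 1 liver well below its other 3. The log2 fold change was 0.03 (SE 0.144, interval -0.30 to 0.35, limma adjusted p = 0.941), and it was -0.10 without Brap F/F replicate 1. These intervals for Hal and Gls2 leave room for a rise or fall in either gene, so the data do not show equal levels. Gls2 shares 2.79% of its exon bases with Spryd4 on the opposite strand, and the 7 members other than Gls2, Nags and Sds share none with another gene.

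Per kilobase of exon, mean normalized counts in Brap F/F were highest for Tat (33105 ± 17324) and Cps1 (29733 ± 3499), which did not differ beyond their spread. Arg1 (21473 ± 3525) and Ass1 (14089 ± 4200) came next. Below them stood Sds (6322 ± 2926) and Asl (5062 ± 1635), again within their spread of each other, then Gls2 (3209 ± 523), Otc (2989.7 ± 165) and Hal (1859 ± 411), of which Gls2 and Otc were within their spread. Nags was lowest at 752 ± 66.5 (SD, n = 4 for each). In Brap LKO the order per kilobase changed at the top, with Cps1 (26001 ± 1698) and Arg1 (17783 ± 1491) ahead of Tat (17239 ± 5444), the last pair within their spread. All 6 urea cycle genes together took 0.790% to 0.915% of the reads of a Brap LKO liver and 0.777% to 1.01% of those of a Brap F/F liver.

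The lowest count of any member in any liver was 1688 reads, for Nags, at which counting alone gives an SD of 2.43%. The coefficient of variation between livers of 1 group, which includes this counting error, ran from 3.93% for Nags in Brap LKO to 52.3% for Tat in Brap F/F.

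Some livers stood high or low for several members. Replicate 2 of Brap F/F had the highest value of the 8 livers for 5 members (Ass1, Asl, Arg1, Sds and Tat), and Brap LKO replicate 4 had the lowest for 5 (Cps1, Otc, Ass1, Asl and Nags). Replicate 1 of Brap F/F was the lowest liver for Sds, Hal and Gls2. The plot of deviations by liver shows this as a column of high values under Brap F/F replicate 2. How often each liver is the highest or lowest over all genes tested was not counted, so these counts have no background. Brap F/F replicate 2 also had the largest normalized counts of the 8 livers when summed over all genes (32729998).

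**Figure D3:**
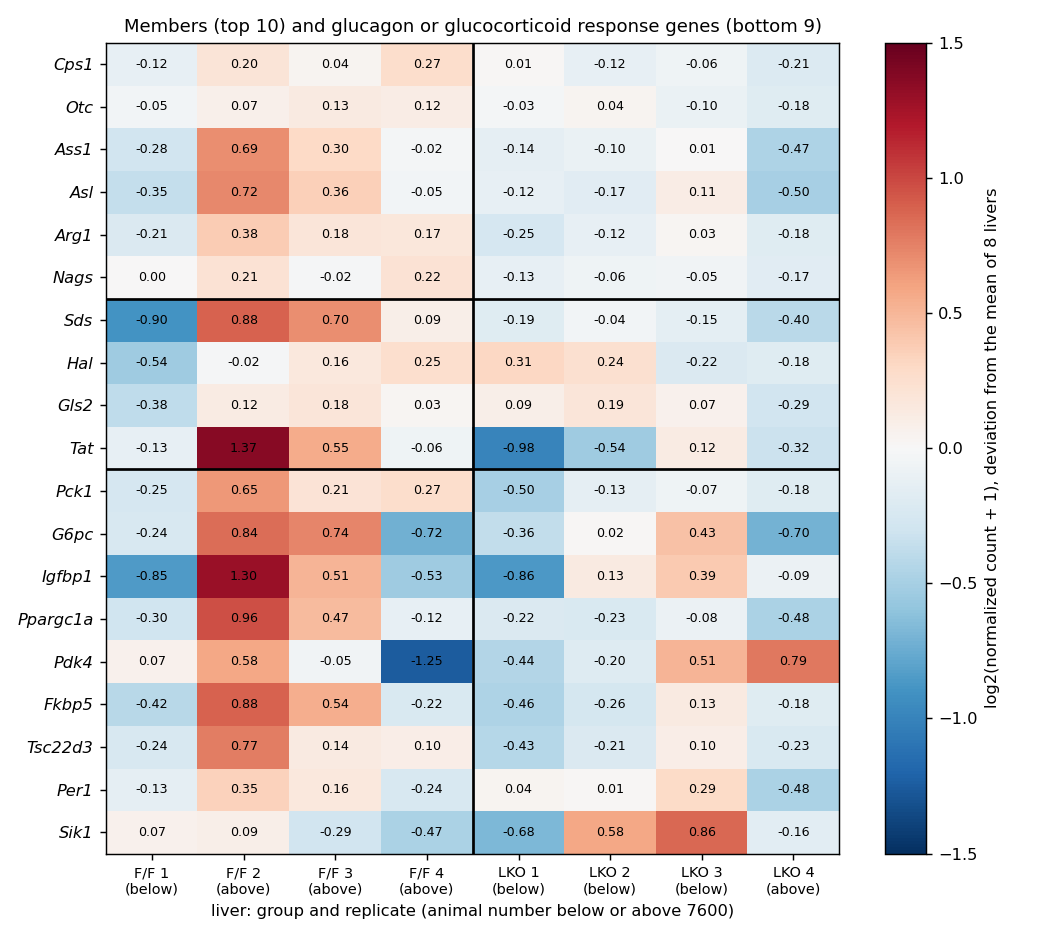
Deviation of log2(normalized count + 1) from the gene's mean over the 8 livers, for the 10 genes (top) and 9 other genes known to respond to glucagon or glucocorticoids (bottom), with 1 column per liver. Brap F/F replicate 2 is the highest liver for 5 of the 10 and for 7 of the 9, and the share over all genes tested was not counted.

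Genes known to respond to glucagon or glucocorticoids shared part of this pattern. Of the 9 such genes listed beside Tat and Sds, Brap F/F replicate 2 was the highest liver for 7 and Brap LKO replicate 1 the lowest for 5. Pck1, the gluconeogenic enzyme of fasting and the most abundant of the list per length, gave normalized counts of 89009, 114664, 119631 and 110956 for Brap LKO and 105339, 197358, 145217 and 151278 in Brap F/F. Fkbp5, a glucocorticoid receptor target, had 4246, 4871, 6418 and 5150 in Brap LKO and 4368, 10775, 8525 and 5010.0 in Brap F/F. Both were highest in Brap F/F replicate 2, as Tat was, and in Brap LKO both were highest in replicate 3, again as for Tat. Sik1, which cAMP induces, had another order, with its highest values in Brap LKO replicates 3 and 2. Of the 11 genes of the list, Tat and Sds included, 0 passed the threshold, 9 were fitted below 0 and the median was -0.39. The part of this response in the members' values was not tested.

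By their animal numbers the mice form a lower series (3 Brap LKO livers and Brap F/F replicate 1) and a higher series (Brap LKO replicate 4 and 3 Brap F/F livers), split at 7600. Within the higher series, Brap LKO replicate 4 was below every Brap F/F liver for 10 of the 10 genes. Its normalized counts summed over all genes (27805439) were also below those of the 3 Brap F/F livers (30864194 to 32729998). Within the lower series, Brap F/F replicate 1 was below every Brap LKO liver for 6 (Cps1, Ass1, Asl, Sds, Hal and Gls2). It lay among them for 3 and above all of them for 1 (Nags). For Cps1 the gap was small (141540.4 against 141542.4 in Brap LKO replicate 2). Each count sets 1 liver against 3, for genes that partly vary together. The share of all genes tested that stand this way was not counted, so these counts have no background.

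Differences within the 2 series often had opposite signs. For Sds the difference in log2 value, Brap LKO minus Brap F/F, was 0.77 in the lower series and -0.96 in the higher. For Ass1 it was 0.21 and -0.79, for Hal 0.65 and -0.31, and for Gls2 0.50 and -0.40. Tat (-0.34 and -0.94) and Nags (-0.08 and -0.31) were below 0 in both. Each series holds 1 liver of one of the groups, and the difference between the series was not tested. When the series was added to the model, 0 of the 10 passed the threshold in limma, the lowest adjusted p was 0.437 (Nags), and the log2 fold change of Tat was -0.64 and that of Sds -0.10.

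Members differed in how closely they tracked each other over the 8 livers. Ass1 and Asl were each other's most alike members, with a Pearson r of 0.991 for log2(normalized count + 1). Cps1 was most like Nags (r = 0.869), Arg1 most like Tat (0.889), Sds most like Ass1 (0.897) and Hal most like Gls2 (0.784). These points share livers, size factors and both groups, and r and rho are given as a description.

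Outside the members, the gene with the highest r among 15342 was Serpinf1 for Ass1 (0.989), Ropn1l for Asl (0.993), Cyp39a1 for Arg1 (0.983), Gm45760 for Cps1 (0.971) and Pgls for Otc (0.973). For Nags it was Psmb4 (0.979), for Hal Tsc1 (0.964), for Gls2 Adarb1 (0.980) and for Tat Snhg3 (0.984). For Sds it was Slc7a2 (0.978), the cationic amino acid transporter that brings arginine and ornithine into hepatocytes. Each was picked as the highest of many over 8 livers.

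The promoters of Tat, Nags and Hal are shown, the first 2 because their intervals lay below 0 and the third because Hal did not follow Tat. Sequences are from RefSeq (GRCm38.p6, the build also called mm10), whose table held 5 of the 10 members (Otc, Ass1, Nags, Hal and Tat), and the 250 bases before the start of transcription are printed. Capitals mark the core of a C/EBP site (TTNNGNAA, either strand) and the CCAAT box (CCAAT, either strand), which overlap at 1 place in Hal. C/EBP factors are regulators of urea cycle and aminotransferase genes in liver.
Tat, chr8:109990186-109990435, plus strand: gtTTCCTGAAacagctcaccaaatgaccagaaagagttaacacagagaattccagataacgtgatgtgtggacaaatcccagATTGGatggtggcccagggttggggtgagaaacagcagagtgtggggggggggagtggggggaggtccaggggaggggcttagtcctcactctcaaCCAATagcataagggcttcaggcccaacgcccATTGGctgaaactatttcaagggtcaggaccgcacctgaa
Nags, chr11:102145263-102145512, plus strand: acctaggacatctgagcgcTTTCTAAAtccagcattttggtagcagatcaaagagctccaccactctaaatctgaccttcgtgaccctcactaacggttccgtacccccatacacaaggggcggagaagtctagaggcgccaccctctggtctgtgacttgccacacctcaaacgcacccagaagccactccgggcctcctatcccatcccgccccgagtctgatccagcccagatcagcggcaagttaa
Hal, chr10:93488518-93488767, plus strand: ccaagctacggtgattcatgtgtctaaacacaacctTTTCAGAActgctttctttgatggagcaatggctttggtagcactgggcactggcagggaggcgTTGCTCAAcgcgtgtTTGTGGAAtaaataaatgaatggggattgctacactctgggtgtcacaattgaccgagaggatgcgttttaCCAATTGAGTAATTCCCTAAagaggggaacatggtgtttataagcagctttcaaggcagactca

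In the windows of 250 bases before to 50 after the start, Hal had 5 matches to the C/EBP core, Otc 2, Tat 1, Nags 1 and Ass1 none. Of 32851 promoters of this length in the table, 40.7% hold at least 1. Tat had 3 CCAAT boxes, first bases 168, 72 and 40 before the start, and Hal had 1; 37.4% of promoters hold one. Hal also had a TATA box (TATAAA, either strand, in 13.6% of promoters), and Nags a half-site of the cAMP response element (TGACG, either strand, in 20.8%), 31 bases after its start. None of the 5 windows held the full cAMP response element (TGACGTCA) or the palindromic glucocorticoid response element. These are in 1.79% and 0.0091% of promoters, so their absence from 5 windows says little. These letters are matches in a window, and binding was not measured.

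The carriers and enzymes that supply the cycle gave the same count of calls as the members, 0 higher and 0 lower of 14 tested. Of these, 12 were fitted below 0, against 52% of all genes tested, and the median was -0.16. Among those below 0, 3 had an unadjusted limma p under 0.05 (Glud1, Got2 and Fh1). Of all genes tested, 6.59% were lower at that p. Glud1, glutamate dehydrogenase, which frees ammonia from glutamate in the mitochondrion, was the most abundant of them per length. Its normalized counts were 28605, 27533, 28503 and 28965 in Brap LKO and 36197, 35306, 35954 and 34404 in Brap F/F. The groups did not overlap, at 28402 ± 612 against 35465 ± 801 (SD, n = 4). The log2 fold change was -0.32 (SE 0.0808), with an adjusted p of 0.108 by limma, 0.108 by edgeR and 1.69e-09 by DESeq2, so the call depended on the tool. With the same total for each liver the log2 fold change of Glud1 was -0.16, that of Got2 -0.07 and that of Fh1 -0.02. The median of all genes was then 0.15, against -0.01 on the deposited scale.

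Got2, the mitochondrial aspartate aminotransferase that makes aspartate for ASS1, was 7465 ± 414 in Brap LKO and 8752 ± 812 in Brap F/F (log2 fold change -0.23, limma adjusted p = 0.249). Fh1, which uses the fumarate that ASL releases, was 5896 ± 271 and 6655 ± 502 (log2 fold change -0.17, limma adjusted p = 0.307). The ornithine carrier Slc25a15 and the aspartate carrier Slc25a13 had log2 fold changes of -0.16 and -0.17, and neither passed the threshold. Of the 12 amino acid transporters tested 0 passed, with a median of -0.08 and Slc38a3, a glutamine transporter, the most abundant per length.

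The other pathways of amino acid breakdown held 49 genes tested, of which 0 were called by limma, 42 were fitted below 0 and the median was -0.14. Of all genes tested 52% were fitted below 0, with a median of -0.01. The side of 0 rests on the scaling. With the same total for each liver the median of all genes was 0.15, and no list beyond the members was counted again at that scaling. Phenylalanine and tyrosine breakdown, the pathway of Tat, had 7 of 7 below 0 (median -0.22), with Hpd the most abundant per length, and lysine and proline breakdown 5 of 5 (median -0.23). Serine, threonine, glycine and alanine breakdown, the pathway of Sds, had 11 of 12 below 0 (median -0.14). Histidine breakdown beyond Hal had 3 of 3 (median -0.14), branched-chain amino acids 11 of 14 (median -0.09) and tryptophan 5 of 8 (median -0.08).

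In these lists 5 of the 49 genes tested had an unadjusted limma p under 0.05, against 15.8% of all genes tested. By this count the lists do not stand out, whereas 42 of the 49 were fitted below 0, against 52%. Gcsh of the glycine cleavage system (log2 fold change -0.20, limma adjusted p = 0.142), Pcbd1, which recycles the cofactor of phenylalanine hydroxylase (-0.29, 0.170), Haao of tryptophan breakdown (-0.28, 0.262) and Gcdh of lysine breakdown (-0.29, 0.301) were below 0. Aadat, an aminotransferase of lysine and kynurenine, was above 0, at 4992 ± 661 in Brap LKO and 3517 ± 532 in Brap F/F (log2 fold change 0.51, limma adjusted p = 0.104). DESeq2 called Gcsh (adjusted p = 0.0286) and Aadat (adjusted p = 0.0145), and edgeR neither. With the same total for each liver Aadat was called by limma too (adjusted p = 0.0439). The fold changes at that scaling were -0.05 for Gcsh, -0.13 for Pcbd1, -0.12 for Haao and -0.13 for Gcdh. It also moved the median of all genes up, from -0.01 to 0.15.

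**Figure D4:**
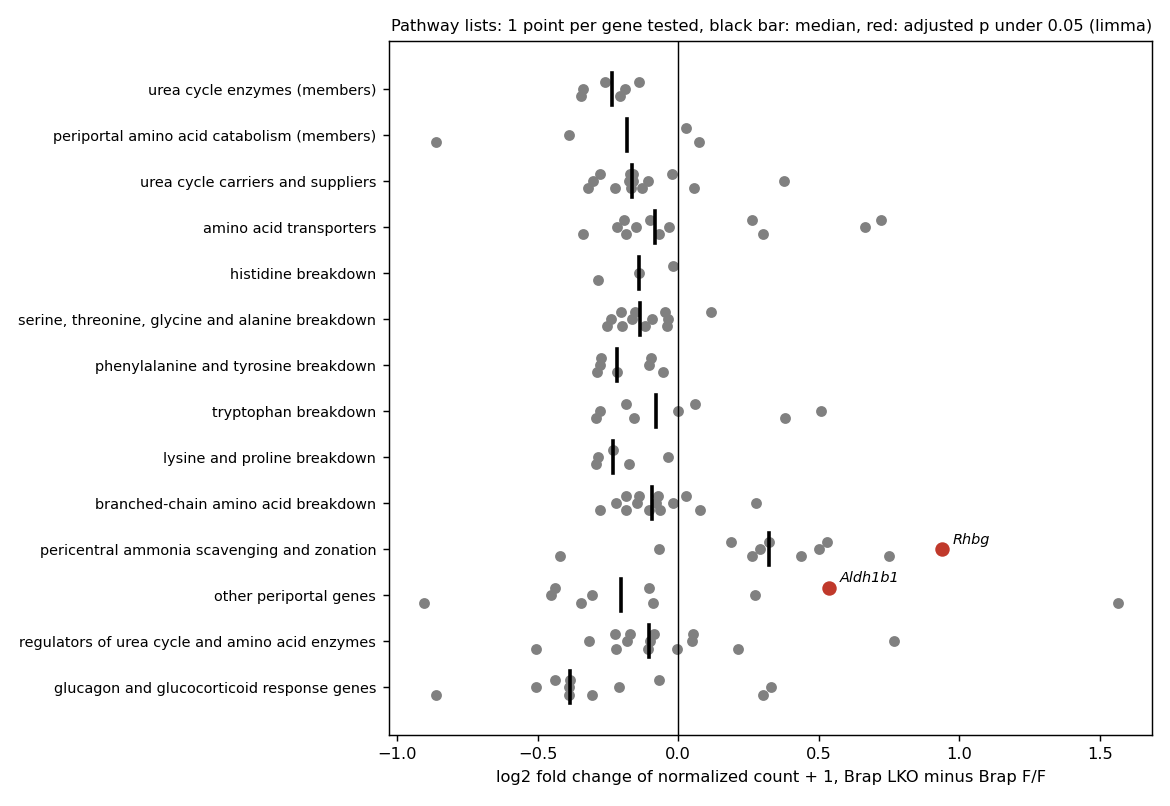
Log2 fold change (Brap LKO minus Brap F/F, log2(normalized count + 1)) of every gene tested in the lists of the pathway and its zone, with 1 point per gene, the median as a black bar and genes past the limma threshold in red. Only Rhbg among pericentral genes and Aldh1b1 among periportal genes are past it. The medians of the members' 2 lists are -0.23 and -0.18 and that of the pericentral list is 0.32.

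The list of pericentral genes, which holds genes of ammonia scavenging together with zonation markers of other functions, had a median log2 fold change of 0.32. Of 11 tested, 9 were fitted above 0, and 1, the ammonium transporter Rhbg, rose past the threshold. Of all genes tested, 52% were fitted below 0 and 0.664% were called higher. An unadjusted limma p under 0.05 was found for 7 of the 11, all higher, against 9.23% of all genes tested. For 4 of the 11 every Brap LKO liver was above every Brap F/F liver, against 5.48% of all genes tested. For Rhbg, Brap LKO livers gave normalized counts of 168, 179, 165 and 205 and Brap F/F livers 119.7, 79.3, 93.6 and 83.4. The groups did not overlap, at 179 ± 18.1 and 94.0 ± 18.2 (log2 fold change 0.94, SE 0.150, limma adjusted p = 0.0313). The call of Rhbg held in 12 of 21 alternative settings and was lost without any 1 of the Brap LKO livers or Brap F/F replicate 2 or 3 (limma adjusted p from 0.0681 to 0.102), and with quantile normalization (0.0508) or the animal series as a covariate (0.0755). Of its exon bases 61.4% are shared with Gm38392 on the same strand, so its count is uncertain. Glul, glutamine synthetase, had a log2 fold change of 0.29 (limma adjusted p = 0.273), and Cyp2e1, the most abundant of the list per length, -0.42.

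Of the 10 other periportal genes listed (Ass1 is 1 of them), 7 were fitted below 0, with a median of -0.20, and 1 was called. Of all genes tested, 52% were fitted below 0 and 0.664% were called higher. Aldh1b1, a mitochondrial aldehyde dehydrogenase, rose in Brap LKO, from 1349.8 ± 88.4 to 1955 ± 116 (log2 fold change 0.53, limma adjusted p = 0.0177). Its adjusted p was 0.0570 to 0.0626 without Brap LKO replicate 1, 3 or 4 or Brap F/F replicate 2. The 14 regulators listed, among them the receptors Gcgr and Nr3c1 and the factors Cebpa, Hnf4a and Foxo1, had 0 calls, 0 genes with an unadjusted p under 0.05 and a median of -0.10.

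Markers of other liver cells were mostly fitted above 0, and 2 of 30 passed the threshold as higher, as did 0.664% of all genes tested. Their summed counts, in which abundant markers weigh most, overlapped between the groups in each of the 5 lists. Single markers did separate. Every Brap LKO liver was above every Brap F/F liver for 3 of 6 cholangiocyte and 2 of 7 stellate and fibroblast markers. That held for 0 markers of the other lists and for 5.48% of all genes tested. The summed normalized counts of 6 cholangiocyte markers were 1352 to 3019 in Brap LKO and 717 to 1485 in Brap F/F, with 6 of 6 fitted above 0. Of these Cldn4 was past the threshold (limma adjusted p = 0.0494), with 0 or 1 read in each control liver. Those of 7 stellate cell and fibroblast markers were 5611 to 8502 and 3904 to 5640, with 6 of 7 above 0 and Pdgfrb past the threshold (limma adjusted p = 0.0494). Both calls were lost in most settings that left out 1 liver (Cldn4 held in 1 of 8, without Brap LKO replicate 2, and Pdgfrb in 1 of 8, without Brap F/F replicate 4). For 6 macrophage markers the sums were 5628 to 10234 and 5743 to 7947, for 5 endothelial markers 4475 to 6761 and 3799 to 5676, and for 6 lymphocyte markers 60.7 to 140 and 63.8 to 92.4. At least 1 liver had a count of 0 for 1 of the cholangiocyte markers. In bulk tissue, a change in the number of cells of a type and a change in RNA per cell cannot be told apart. The part of these cells in the members' values was not tested.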

How the data were processed

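The deposited signal is a normalized count: the authors divided each gene's reads by the liver's DESeq2 size factor. Libraries were made with a NuGEN mRNA kit, and reads were aligned to mm10 with STAR 2.6.0c. The counting tool, annotation and use of strand are not given in the sources used here. All values (100%, tolerance 0.001) were whole multiples of 1 read, so reads were recovered. The depth was 26280884 to 33313914 reads per liver. Intervals rest on the spread between livers. The authors' table of their own comparison (mean, log2 fold change, standard error, p-value, adjusted p-value and fold) was not used.

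The groups, 4 livers each, were compared with limma 3.58.1 in R 4.3.3 (lmFit, eBayes with trend) on log2(normalized count + 1) for 15352 genes with a mean of at least 5, adjusted by Benjamini-Hochberg over all of them. The script was tested on simulated data with 200 changed genes. Alternatives were edgeR 4.0.16 and DESeq2 1.42.0 on the recovered reads, other pseudocounts, filters, scalings and covariates, and leaving out each liver. Single genes also had two-sided exact permutation tests. Positions and exon lengths are from GENCODE for mm10. Python 3.11.15 with pandas 2.3.3, scipy 1.17.1 and matplotlib 3.10.9 was used.

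The members, lists and tests were chosen with earlier results of these data known. All 10 members were named. Of the lists, the genes named by rule were those past the threshold, those with an unadjusted p under 0.05 among carriers, breakdown genes and regulators, and the most abundant per length, together with Brap. Other genes given with values were chosen after their values were seen. Tf, Mut and Tdh of the lists were not analysed here, Arg2 was below the filter, and 1 listed gene is not reported here.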

Additional observations from a re-analysis of the deposited data

How the results depend on the processing

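None of the 10 members passed the threshold under any of 21 alternative settings. The lowest adjusted p of any member was 0.119 (Sds, without Brap F/F replicate 1). A different filter, other eBayes options or the replicate number as a block cannot change a member's fitted fold change. Of the members' 210 log2 fold changes, which include those of such settings, 204 kept their sign. The other 6 changed sign: Cps1 was 0.14 with quantile normalization, Otc 0.0186 with the same total per liver, Hal -0.0151 and -0.0916 when replicate 1 of Brap LKO or of Brap F/F was left out (range over the 8 livers left out -0.0916 to 0.171), and Gls2 -0.03 when replicate 2 of Brap LKO was left out and -0.0954 when replicate 1 of Brap F/F was (range -0.0954 to 0.128). Brap was 0.0864 with the same total and 0.0082 with quantile normalization. With the same total the median of all genes moved from -0.01 to 0.15, and the members' median minus that of all genes was -0.22 in both, against -0.09 with quantile normalization. Leaving out Brap F/F replicate 1 moved Ass1 to -0.50, Asl to -0.51 and Tat to -1.05, and leaving out replicate 2 of that group moved them to -0.17, -0.16 and -0.55.

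Counts over all genes depended more on the setting. Genes called higher were 459 with the same total, 62 with quantile normalization, 455 by DESeq2, 283 at an adjusted p under 0.1 and 11 to 178 when 1 liver was left out. Genes called lower were 9 with a minimum mean of 20, 170 by DESeq2, 64 at an adjusted p under 0.1 and 4 to 54 when 1 liver was left out. The cause was not tested. Same-numbered livers correlated in their deviations by -0.13 to 0.29, and 5 of 8 livers correlated best with their own number. With so few livers this does not decide whether same-numbered livers share more than a number. With the replicate number as a block, limma called 80 genes higher, 15 lower and 0 members, and Rhbg (limma adjusted p = 0.0705) and Cldn4 (0.0789) lost their calls. Depth was not varied.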

Other observations

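Related genes with other roles were read on the same scale. Arg2, the mitochondrial arginase found mainly outside the liver, had 6, 9, 0 and 3 reads in Brap LKO and 2, 2, 3 and 4 in Brap F/F, below the filter. Sdsl, the serine dehydratase-like gene, had 309.7 ± 38.4 and 333 ± 65.7 normalized counts (SD, n = 4 livers each), a log2 fold change of -0.09. Both are far less abundant in these livers than their periportal counterparts Arg1 and Sds.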
